A study of Homo sapiens with 8 samples.

Results

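The stromal matrix and smooth muscle genes are 34 genes that encode collagens, proteoglycans, other matrix proteins, matrix enzymes and their inhibitors, and the contractile proteins of smooth muscle. They were named by symbol as a list, chosen with earlier results of these data known. Each was followed through 1 probe set, the brightest that is annotated to that gene alone. All 34 were on the array, among 19775 genes that could be named. Probe sets whose names end in _x_at, a kind that can match several transcripts, were taken only for lack of another. The samples were H9 cells, a widely used human embryonic stem cell line. Undifferentiated, unsorted cells stood for day 0. For days 4, 6 and 8, cells carrying both KDR and CD31 on their surface were sorted from embryoid bodies grown in StemPro34, a serum-free haematopoietic medium, with BMP-4. Per the labels' protocols the line was kept on mitotically inactivated mouse embryonic fibroblasts, and their share of the RNA in the day 0 samples was not tested. Each group had 2 arrays, called biological replicates in the labels with no word on shared cultures, so p-values measure only the spread between these arrays.

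Fibroblasts, pericytes and smooth muscle cells build the interstitial matrix. Fibrillar collagens give it tensile strength, small proteoglycans such as lumican and decorin space the fibrils, fibrillins and elastin make it elastic, and lysyl oxidases cross-link it. The contractile genes are classic targets of serum response factor with its myocardin-family cofactors. CCN2, or connective tissue growth factor, is a standard target of YAP and TAZ acting through TEAD factors and of TGF-beta. Endothelial cells make many of these proteins too, at levels that differ with origin and state.

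Levels are given as log2(intensity + 32), called log2 intensity here, and changes are differences on that scale, which understate the change of dim genes. Median intensity lay between 88.7 and 93.2 per array. A gene was tested where 2 or more of the 8 arrays put it above their median, as was so for 33 of the 34. BGN was below it on all 8 by its chosen probe set. COL12A1 passed through the 2 day 0 arrays alone, so its call of a difference was built in, and 26 genes were above the median on all 8 arrays. The 2 day 0 arrays were far closer to each other than the arrays of any sorted day, with a median absolute difference over all genes tested of 0.08 on the log2 scale on day 0, 0.28 on day 4, 0.32 on day 6 and 0.18 on day 8. The 3' to 5' signal ratio of the GAPDH control, a measure of RNA integrity, was 1.71 and 1.91 on day 0, 2.22 and 2.15 on day 4, 3.73 and 3.41 on day 6, and 2.41 and 3.08 on day 8, so it moved with day. The same ratio of the ACTB control overlapped, with 8.92 and 10.4 on day 0 and 9.18 to 31.0 on the sorted arrays. The part of RNA integrity in the changes against day 0 was not tested. Because only the later cells were sorted, day and sorting cannot be told apart, and in bulk RNA neither can fewer cells of a type and less RNA per cell.

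The sorted cells carried endothelial markers, among them KDR and PECAM1, which encodes CD31, the pair used for the sort. Of 14 endothelial markers 7, PECAM1 included, were above the array median on sorted arrays alone, so their difference was built into the filter. Of the other 7, 6 passed as higher on day 4 and 7 on day 6 and on day 8. KDR is among these 7, and the sort itself selected for it. Of 12 tested markers of undifferentiated cells, NANOG, ZFP42 and USP44 were above the median on day 0 alone and had to differ, and of the other 9, 8 were lower on day 4, 8 on day 6 and 9 on day 8. Of 16 markers of pericytes, smooth muscle and fibroblasts, 11 were bright enough to test. MYH11, the smooth muscle myosin, and LMOD1 were among the 5 that were not. Among the 11 tested, 2, 2 and 3 rose, 2, 2 and 2 fell and 7, 7 and 6 did not pass on day 4, day 6 and day 8. Over all genes 8.52%, 9.73% and 10.4% rose and 9.91%, 13.6% and 14.1% fell. RGS5, a pericyte marker, was higher at every sorted day (11.1-fold on day 4), as was SMTN, and PDGFRB was lower. The falls include FAP. FAP, a fibroblast marker, was above the array median on the day 0 arrays alone, with 7.64 and 7.69 log2 intensity there, so that it had to differ.

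The promoter of CCN2 is shown because this gene had the second largest fall of the list on days 4 and 6 and carries a cluster of TEAD-type motifs. That of COL12A1, the largest fall, is shown for contrast. Both sequences are the 250 bases before the RefSeq start in GRCh38.p14, 5′ to 3′ on the gene's strand, at chr6:131951373-131951622 (minus strand) for CCN2 and chr6:75206054-75206303 (minus strand) for COL12A1. Capitals mark GGAATG, searched on both strands.
CCN2: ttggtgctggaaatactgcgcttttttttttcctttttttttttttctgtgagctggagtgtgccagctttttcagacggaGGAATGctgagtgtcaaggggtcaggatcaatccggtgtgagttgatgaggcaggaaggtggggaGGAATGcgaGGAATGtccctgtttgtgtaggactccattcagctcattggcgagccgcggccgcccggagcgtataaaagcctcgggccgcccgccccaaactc
COL12A1: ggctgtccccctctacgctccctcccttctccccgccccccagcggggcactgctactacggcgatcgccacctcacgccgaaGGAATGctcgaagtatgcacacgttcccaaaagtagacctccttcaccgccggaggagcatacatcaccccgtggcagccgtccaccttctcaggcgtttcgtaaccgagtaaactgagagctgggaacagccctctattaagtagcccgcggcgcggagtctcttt

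CCN2 held 3 copies, beginning 169, 104 and 95 bases before the start, and COL12A1 held 1, beginning 167 bases before it. Among 35116 promoter windows of this length in the table, 11.9% held at least 1 copy and 0.0826% held 3 or more. Since CCN2 was shown partly for its copies, the rarity of 3 or more is no test. Of the 34 genes, 22 had a window in the table, with 30 windows between them. The motif was in at least 1 window of 5 genes, namely CCN2, COL12A1, CALD1, ACTA2 and FBN1. This count is per gene, unlike the shares above, which are per window. The windows of COL11A1, LOX, TNC and TPM1, which were also lower at all 3 days, held no copy. The CArG box, the motif bound by serum response factor, had no exact match in any of the 22, against 1.16% of all windows. With so rare a motif and so few windows, the lack of a match says little about these genes. TAGLN and MYL9 had no window in the table. A match is a description of letters and not evidence of binding.

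The comparisons with day 0 asked how the sorted cells differed from the undifferentiated culture in these genes. On day 4, 12 of the 33 genes tested fell and 3 rose. On day 6, 14 fell and 2 rose, and on day 8, 13 fell and 2 rose. The falls of each day include COL12A1, whose difference was built into the filter. Over all 13647 genes tested, 9.91% fell and 8.52% rose on day 4 (18.4% in all), 13.6% fell and 9.73% rose on day 6 (23.4%), and 14.1% fell and 10.4% rose on day 8 (24.5%). These calls are limma tests at an adjusted p under 0.05, adjusted over all genes. The median change of the 33 genes was -0.58, -0.84 and -0.73 at the 3 days, against 0.02, -0.03 and -0.03 over all genes. The 3 comparisons share the same 2 day 0 arrays. Because the list was chosen with earlier results of these data known, its contrast with all genes is a description and not a test.

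The direction of change was not uniform across the list. Lower at all 3 days were COL1A1, COL1A2, COL6A1, COL11A1, COL12A1, TNC, CCN2, LOX, TAGLN, MYL9 and TPM1, which makes 11 genes. TIMP3 and COL5A2 were higher at all 3. Another 5 genes were called at 1 or 2 days (COL6A3, FBN1, POSTN and CNN1 lower, TIMP1 higher), and 15 of those tested at none. For 18 genes all 6 sorted arrays lay below both day 0 arrays and for 5 genes all 6 lay above, while 10 overlapped. Over all genes tested the same separation held for 24.8% (below) and 22.2% (above). COL12A1, whose difference was built into the filter, is among the 11 and the 18.

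Many of these calls, like calls over all genes, depended on having both day 0 arrays. The counts over all genes with an array left out are in the closing section. When replicate 1 of day 0 was left out, 4 of the genes were called on day 4, 4 on day 6 and 7 on day 8, and when replicate 2 was left out, 4, 5 and 7. Without replicate 2 of day 6 the count on day 6 was 9, and without replicate 2 of day 8 the count on day 8 was 8. Of the 46 calls, 15 held under every alternative tried. They were the calls of CCN2, COL12A1, TNC and TPM1 at all 3 days, and of COL1A2, MYL9 and TIMP3 on day 8. The 3 calls of COL12A1 were built into the filter, which leaves 12. The other 31 were lost without at least 1 of the day 0 arrays, and 24 of them also without an array of a sorted day. The adjusted p where a call was lost to a left-out array lay between 0.0513 and 0.227, and no call turned its direction. The mean of all probe sets ended the calls of COL5A2 on all 3 days, COL1A2 and FBN1 on day 6 and COL6A1 on day 4. A fit to only the groups compared ended those of COL5A2, COL11A1 and TAGLN on day 6 and of COL6A1, FBN1 and TIMP1 on day 4. Quantile normalization ended those of COL5A2 on days 4 and 6, FBN1 on day 6 and TIMP1 on day 4. Without the filter COL5A2 and COL6A3 lost their day 6 calls, without the eBayes trend COL5A2 lost it, and with median centring FBN1 did.

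**Figure D1:**
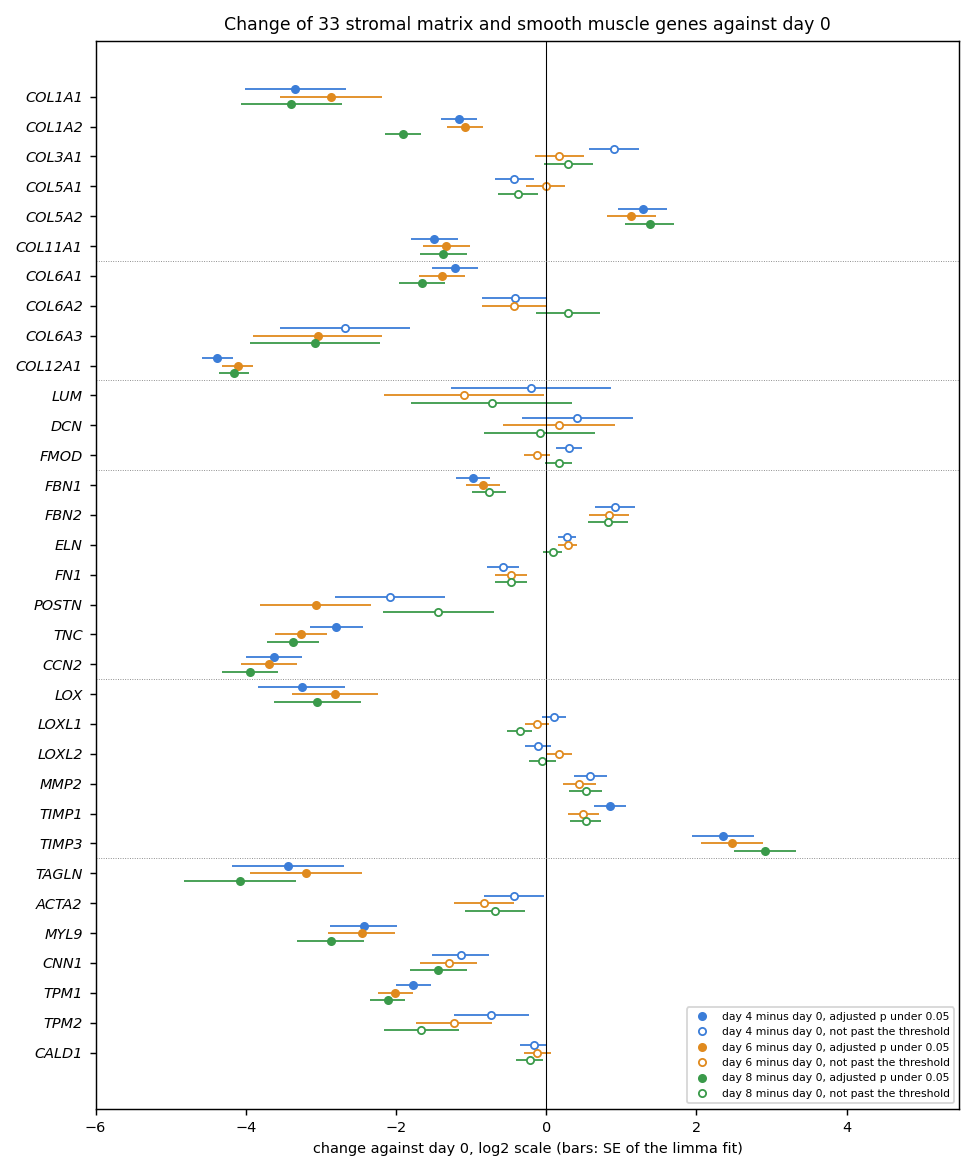
Change against day 0 on the log2 scale (x axis) for the 33 genes tested, grouped by role and drawn for day 4, day 6 and day 8, with bars for the SE of the limma fit. Filled points passed an adjusted p of 0.05. COL12A1, TAGLN and CCN2 lie farthest to the left and TIMP3 farthest to the right.

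Among the 6 fibrillar collagens, 3 fell and 1 rose at each day. Over all genes 9.91%, 13.6% and 14.1% fell and 8.52%, 9.73% and 10.4% rose on day 4, day 6 and day 8. The chains of collagen I changed by unequal amounts. COL1A1, the alpha 1 chain of the main collagen of bone and skin, had 13.81 and 13.82 log2 intensity on day 0, 11.48 and 9.47 on day 4, 11.61 and 10.29 on day 6, and 10.25 and 10.60 on day 8. Both day 0 arrays were above every sorted array, and the 2 arrays of day 4 differed by 4.03-fold. Relative to day 0 it was lower by 10.1-fold on day 4 (log2 change -3.34 ± 0.67 SE, limma adjusted p = 0.0155), 7.28-fold on day 6 and 10.5-fold on day 8. COL1A2, the alpha 2 chain of the same trimer, had 13.48 and 13.48 on day 0, 12.30 and 12.33 on day 4, 12.50 and 12.28 on day 6, and 11.22 and 11.93 on day 8. It was lower by 2.24-fold, 2.12-fold and 3.74-fold at the 3 days (adjusted p 0.0165, 0.0187 and 0.00195). The call on day 8 held in every alternative. Those on day 4 and day 6 were lost without either day 0 array, on day 4 also without either day 4 array and on day 6 without replicate 2 of day 6 (adjusted p 0.0588 to 0.122). COL1A1 lost its calls without either day 0 array, on day 6 also without replicate 2 of day 6 and on day 8 without either day 8 array (adjusted p 0.063 to 0.124).

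COL5A2, a chain of the collagen V that starts fibrils, rose where COL1A1 fell. It had 11.40 and 11.37 log2 intensity on day 0, 12.60 and 12.74 on day 4, 12.02 and 13.01 on day 6, and 12.51 and 13.01 on day 8. All 6 sorted arrays were above the day 0 pair, by 2.44-fold on day 4 (adjusted p = 0.0372), 2.19-fold on day 6 (adjusted p = 0.048) and 2.60-fold on day 8 (adjusted p = 0.024). These calls were lost without either day 0 array and without up to 5 of the sorted arrays (adjusted p 0.0528 to 0.205). Its partner chain COL5A1 did not pass at any day, with changes of -0.42 ± 0.27 (SE), -0.01 ± 0.27 and -0.38 ± 0.27. COL3A1, the collagen of distensible tissues such as vessel walls, lay between 12.02 and 13.50 log2 intensity on the sorted arrays and at 12.38 and 12.21 on day 0. Its changes of 0.90 ± 0.33, 0.17 ± 0.33 and 0.29 ± 0.33 did not pass. COL11A1, a cartilage-type fibrillar collagen, fell by 1.49, 1.33 and 1.37 at the 3 days (adjusted p 0.0177 to 0.0235). These calls were lost without either day 0 array, and also without replicate 1 of day 4 on day 4, replicate 1 of day 6 on day 6 and either day 8 array on day 8 (adjusted p 0.0594 to 0.135).

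The collagens outside the fibrillar group held the largest fall of the list. COL12A1, a collagen that decorates fibril surfaces, had 10.30 and 10.37 log2 intensity on day 0, 6.12 and 5.80 on day 4, 6.52 and 5.93 on day 6, and 6.16 and 6.19 on day 8. It was below the array median on all 6 sorted arrays and above it on both day 0 arrays, so that it had to differ. The difference was 20.8-fold on day 4 (log2 change -4.38 ± 0.20 SE, adjusted p = 2.66e-05), 17.2-fold on day 6 and 17.8-fold on day 8. The 3 chains that assemble into microfibrillar collagen VI passed on different days. COL6A3 had 12.71 and 12.59 on day 0, 11.19 and 8.75 on day 4, 10.58 and 8.64 on day 6, and 9.72 and 9.42 on day 8, and its change of -2.68 ± 0.86 on day 4 did not pass (adjusted p = 0.0786). It was lower by 8.24-fold on day 6 and 8.45-fold on day 8 (adjusted p 0.0445 and 0.0416), calls lost without either day 0 array, either day 8 array or, on day 6, replicate 2 of day 6 (adjusted p 0.0794 to 0.191). COL6A1 was lower by 2.31-fold, 2.62-fold and 3.14-fold, from 10.22 to 11.18 on the sorted arrays and 12.03 and 11.87 on day 0. Without either day 0 array, and without several sorted arrays (replicate 2 of day 4 and both day 8 arrays on day 4, replicate 2 of day 6 on day 6, replicate 2 of day 8 on day 8), the COL6A1 calls were lost (adjusted p 0.0615 to 0.212). COL6A2 had differences of -0.42 ± 0.43, -0.43 ± 0.43 and 0.29 ± 0.43, which did not pass.

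Of the 4 small leucine-rich proteoglycans 3 were tested, all but BGN, and none of these passed at any day. LUM and DCN were over 2-fold apart between the replicates of day 4 and of day 6. LUM, lumican, had 10.35 and 10.29 log2 intensity on day 0, 11.41 and 8.81 on day 4, 10.64 and 7.81 on day 6, and 9.93 and 9.24 on day 8. Replicate 1 was above the day 0 level on day 4 and day 6, and replicate 2 below it. DCN, decorin, behaved the same way with 7.04 and 7.06 on day 0, 8.41 and 6.51 on day 4, 8.16 and 6.27 on day 6, and 7.22 and 6.70 on day 8. FMOD, fibromodulin, stayed between 6.83 and 7.5 on all 8 arrays. BGN, biglycan, lay between 6.33 and 6.68 by its chosen probe set, while a pair of other probe sets, of the kind that can match several transcripts, were brighter and were higher on day 4 by 1.09 and 1.12, on day 6 by 1.68 and 1.63 and on day 8 by 1.5 and 1.56.

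Among glycoproteins, TNC and CCN2 fell under every alternative tried. TNC, tenascin-C, an adhesion-modulating protein of embryonic and wounded tissue, had 10.70 and 10.68 log2 intensity on day 0, 7.95 and 7.84 on day 4, 8.02 and 6.83 on day 6, and 7.25 and 7.38 on day 8. It was lower by 6.94-fold, 9.59-fold and 10.4-fold (adjusted p 0.00219, 0.00097 and 0.000836). CCN2, whose promoter is shown above, had 11.50 and 11.35 on day 0, 8.08 and 7.51 on day 4, 8.26 and 7.22 on day 6, and 7.71 and 7.26 on day 8. All 6 sorted arrays were more than 3 log2 units below the lower day 0 array, and the fall was 12.4-fold, 12.9-fold and 15.3-fold (adjusted p 0.000892, 0.00076 and 0.000562).

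The fibrillins, which form the microfibrils on which elastin is laid down, lay on opposite sides of day 0, and only FBN1 passed. FBN1 was lower by 1.96-fold on day 4 and 1.79-fold on day 6 (adjusted p 0.0274 and 0.0392), with 10.39 to 10.95 on the sorted arrays and 11.68 and 11.58 on day 0. On day 8 its change of -0.76 ± 0.23 did not pass (adjusted p = 0.0513). The FBN1 calls were lost without either day 0 array, either day 8 array, and replicate 1 of day 4 or of day 6 at its own day (adjusted p 0.0578 to 0.227). FBN2, the fibrillin of early development, was above both day 0 arrays on all 6 sorted arrays (11.48 to 12.09 against 10.95 and 10.88), and its changes of 0.92, 0.84 and 0.82 ± 0.26 had adjusted p between 0.057 and 0.0634. ELN, elastin, stayed between 7.37 and 7.75 on all 8 arrays.

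FN1, fibronectin, the main adhesive glycoprotein of matrix, had 12.92 to 13.52 log2 intensity on the sorted arrays and 13.76 and 13.84 on day 0. Its changes of -0.58, -0.47 and -0.47 ± 0.21 (SE) did not pass. POSTN, periostin, a matrix protein of fibroblasts and valves, had 9.81 and 9.98 on day 0, 9.01 and 6.62 on day 4, 7.41 and 6.24 on day 6, and 8.61 and 8.31 on day 8. It passed on day 6 alone, 8.40-fold lower (adjusted p = 0.026), and that call was lost without either day 0 array, replicate 2 of day 6 or either day 8 array (adjusted p 0.0513 to 0.135).

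Of the enzymes and inhibitors, the cross-linking enzyme LOX fell while its relatives LOXL1 and LOXL2 did not pass. LOX had 10.17 and 10.13 log2 intensity on day 0, 7.62 and 6.17 on day 4, 7.09 and 7.59 on day 6, and 6.40 and 7.81 on day 8. No sorted array came near the day 0 pair, and the fall was 9.56-fold, 7.02-fold and 8.26-fold (adjusted p 0.00915, 0.0142 and 0.0103). The LOX calls were lost without either day 0 array and on day 8 without replicate 1 of day 8 (adjusted p 0.0531 to 0.0859). LOXL1 lay between 8.77 and 9.41 and LOXL2 between 9.78 and 10.16 on all 8 arrays, with changes of at most 0.36 in size.

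TIMP3, a matrix-bound inhibitor of metalloproteinases that also blocks VEGF binding to its receptor KDR, showed the largest rise. It had 9.11 and 9.35 log2 intensity on day 0, 11.39 and 11.77 on day 4, 11.04 and 12.37 on day 6, and 12 and 12.28 on day 8. All 6 sorted arrays were above both day 0 arrays, by 5.10-fold, 5.56-fold and 7.51-fold on average (adjusted p 0.00893, 0.00639 and 0.00328). The day 4 call was lost without either day 0 array and the day 6 call without replicate 1 of day 0 (adjusted p 0.0556 to 0.0741). TIMP1, the soluble inhibitor, rose 1.80-fold on day 4 (adjusted p = 0.0327), a call lost without either day 0 array, replicate 2 of day 4 or either day 8 array (adjusted p 0.0553 to 0.221). On day 6 and day 8 TIMP1 had differences of 0.49 and 0.53 ± 0.21, which did not pass. MMP2, the gelatinase these inhibitors restrain, lay at 10.36 to 10.88 on the sorted arrays and at 10.11 and 10.07 on day 0, and its changes of 0.59, 0.44 and 0.53 ± 0.22 did not pass.

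By their chosen probe sets, all 7 contractile genes had a lower mean at every sorted day than on day 0. Of them 3, 3 and 4 passed on day 4, day 6 and day 8, where 9.91%, 13.6% and 14.1% of all genes fell. TAGLN, transgelin or SM22, an early smooth muscle marker, had 10.97 and 11.12 log2 intensity on day 0, 8.27 and 6.94 on day 4, 8.97 and 6.73 on day 6, and 7.37 and 6.56 on day 8. It was below the array median on 3 of the 6 sorted arrays, and it was lower by 10.8-fold, 9.16-fold and 16.9-fold (adjusted p 0.0208, 0.0238 and 0.0092). The TAGLN calls were lost without either day 0 array or replicate 2 of the sorted day compared (adjusted p 0.0532 to 0.126). MYL9, the regulatory light chain of smooth muscle myosin, had 10.27 and 10.49 on day 0, 8.52 and 7.38 on day 4, 8.17 and 7.67 on day 6, and 7.98 and 7.03 on day 8. It was lower by 5.38-fold, 5.5-fold and 7.31-fold (adjusted p 0.0108, 0.00904 and 0.00483), and the calls on day 4 and day 6 were lost without either day 0 array (adjusted p 0.054 to 0.0813).

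TPM1, the broadly expressed alpha tropomyosin, was the only contractile gene whose fall held in every alternative on all 3 days. It had 13.97 and 13.88 log2 intensity on day 0, 12.28 and 12.03 on day 4, 12.19 and 11.64 on day 6, and 12 and 11.64 on day 8. The fall was 3.41-fold, 4.03-fold and 4.31-fold (adjusted p 0.00269, 0.00133 and 0.00108). CNN1, calponin, which marks contractile smooth muscle, passed on day 8 alone, 2.71-fold lower (adjusted p = 0.0356), and leaving out any 1 array of day 0 or of day 8 lost the call (adjusted p 0.101 to 0.178). TPM2, beta tropomyosin, had a change of -1.66 ± 0.50 on day 8 that did not pass (adjusted p = 0.0527). ACTA2, smooth muscle alpha actin, lay at 9.08 to 10.37 on the sorted arrays and at 10.58 and 10.53 on day 0, and did not pass, with changes of -0.43, -0.83 and -0.68 ± 0.40. CALD1, caldesmon, lay between 12.79 and 13.22 on all 8 arrays. Another CALD1 probe set that passed the brightness filter was higher by 0.49, 1.00 and 0.72 at the 3 days. The remaining CALD1 probe sets that passed it were all lower on day 4.

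**Figure D2:**
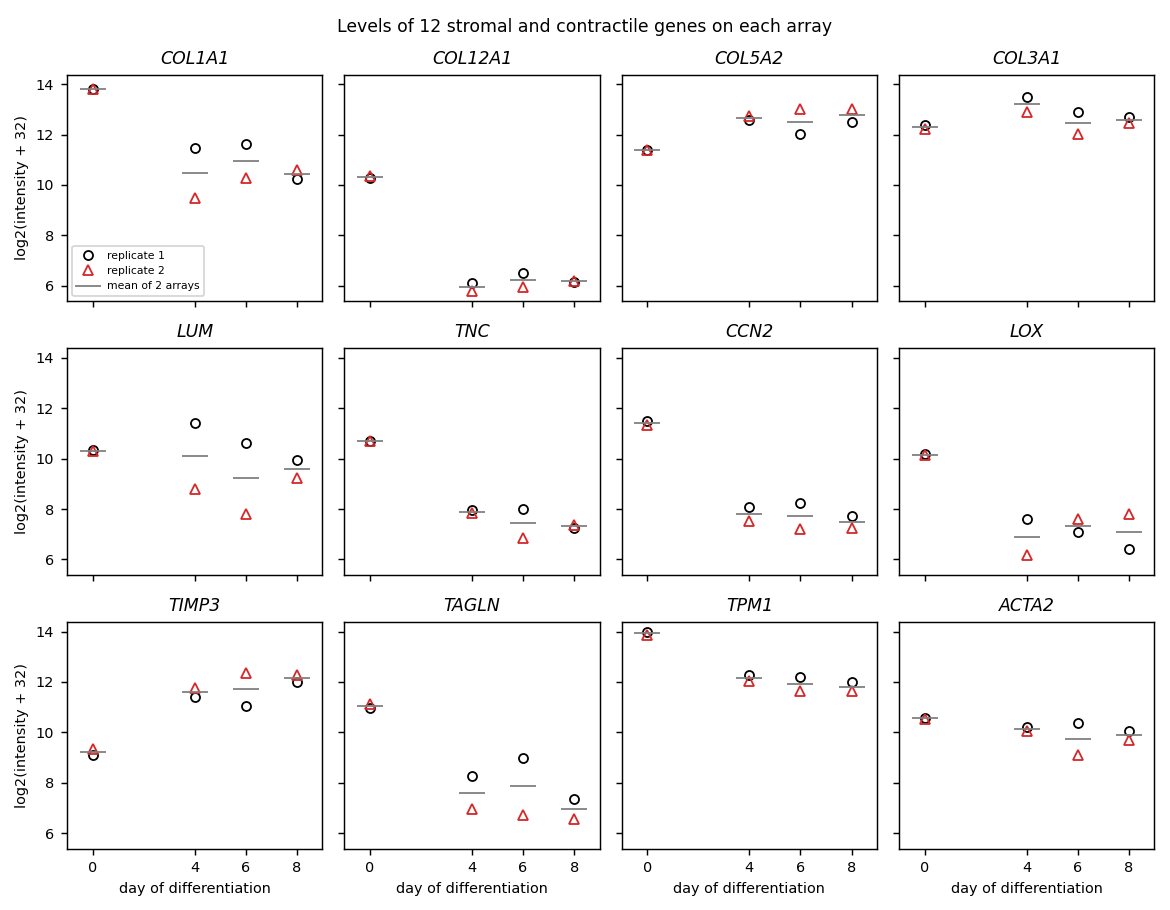
Log2 intensity (y axis) of 12 of the genes on every array by day (x axis), with replicate 1 as circles, replicate 2 as triangles and the mean of the 2 arrays as a grey dash. TIMP3 and COL5A2 lie higher on all sorted arrays than on day 0, CCN2, TNC and COL12A1 lie lower, and the replicates of LUM part on day 4 and day 6.

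Probe sets of the same gene did not always differ by the same amount. The 34 genes had 119 probe sets annotated to 1 gene, and 28 genes had more than 1. For genes called on day 8, 23 other probe sets passed the brightness filter, of which 21 had the same sign as the chosen one and 4 differed by under 0.5 in size. Both with the opposite sign belonged to COL1A1, at 0.00 and 0.02, whereas a further pair of its probe sets differed by -3.45 and -3.08. The 4 other TPM1 probe sets that passed the filter differed by -1.93 to -4.01 on day 8. The 3 others of TIMP3 differed by 1.51 to 2.02. The second bright probe set of MYL9 differed by only -0.16, and those of TAGLN by -0.98 and -0.30, against -2.87 and -4.08 for the chosen ones.

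Within the sorted gate the list was not shown to change. None of the 33 genes passed between day 6 and day 4, day 8 and day 4, or day 8 and day 6 in limma, and over all genes tested 0% passed in each. At an unadjusted p under 0.05 there were 1, 2 and 1 of these genes, against 5.29%, 6.5% and 2.48% of all genes. COL1A2 was at 11.22 and 11.93 log2 intensity on day 8, below all 4 arrays of day 4 and day 6 (12.28 to 12.50), a change of -0.74 ± 0.24 (SE) against day 4 with an adjusted p of 0.724. POSTN had the largest mean difference, 1.63 ± 0.74 between day 8 and day 6 (adjusted p = 0.955).

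Between replicates the matrix and contractile genes differed more than most genes. Of the 33 genes, 8 were over 2-fold apart between the 2 arrays of day 4, 13 on day 6 and 2 on day 8, and none on day 0. Over all genes tested, 6.66%, 9.25% and 1.58% were so at these sorted days and 0.00733% on day 0. On day 4 all 8 were higher in replicate 1, and on day 6 it was 11 of the 13. The median of replicate 1 minus replicate 2 over the 33 genes was 0.26 on day 4 and 0.38 on day 6. Over all genes it was 0.12 and 0.07. The share of all genes over 2-fold higher in replicate 1, on either day or on both, was not counted. COL1A1, COL6A3, LUM, DCN, POSTN and TAGLN, 6 genes, were over 2-fold higher in replicate 1 on both days, out of 8 such genes on day 4 and 11 on day 6. LUM was 6.06-fold higher in replicate 1 than in replicate 2 on day 4 and 7.09-fold on day 6, and COL6A3 5.43-fold and 3.82-fold. TIMP3 and COL6A2 were higher in replicate 2 on day 6, by 2.51-fold and 2.20-fold. Over the 33 genes, which share their arrays, the replicate difference on day 4 and that on day 6 had a Pearson correlation of 0.63. Over all genes tested it was 0.60, so the likeness of the 2 days was not particular to these genes. Both values are given as a description.

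**Figure D3:**
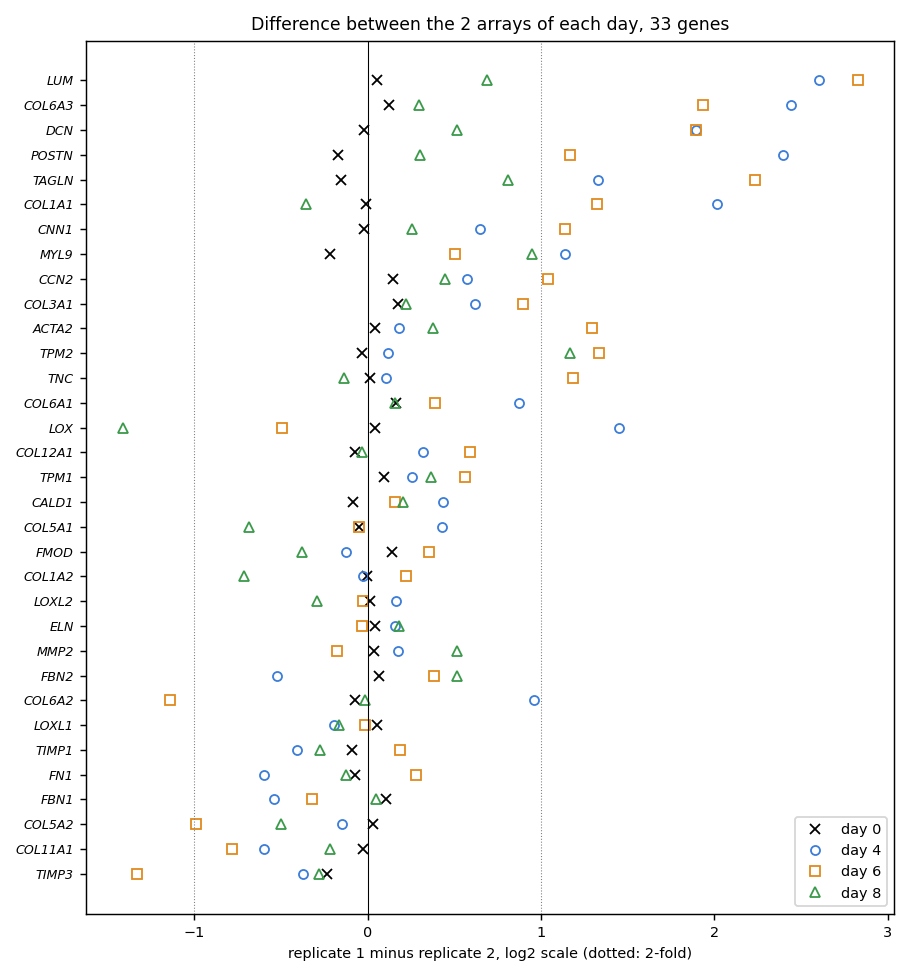
Replicate 1 minus replicate 2 on the log2 scale (x axis) for the 33 genes tested, with crosses for day 0 and open circles, squares and triangles for day 4, day 6 and day 8. The dotted lines mark 2-fold, and LUM lies farthest to the right on day 4 and day 6.

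Summed markers of other cell types also differed between the replicates. The summed intensity of the 16 pericyte, smooth muscle and fibroblast markers was 6313 and 6244 in replicates 1 and 2 of day 0, 24766 and 16184 on day 4, 25496 and 14326 on day 6, and 17960 and 13227 on day 8. RGS5 made up most of the sums of the sorted arrays, and without it they were 4926 and 4992 on day 0, 6163 and 4238 on day 4, 5477 and 3435 on day 6, and 3657 and 3720 on day 8. The summed 14 endothelial markers were lower in replicate 1 on days 4 and 6, with 2150 and 2132 on day 0, 50015 and 62078 on day 4, 41991 and 67356 on day 6, and 62709 and 59385 on day 8. Of the 11 tested genes of the pericyte, smooth muscle and fibroblast list, 8 were higher in replicate 1 and 3 in replicate 2 on day 4, and 6 and 5 on day 6. PRRX1 and TWIST1, transcription factors of mesenchyme chosen after their values were seen, had 8.99 and 6.62, and 9.92 and 8.39 log2 intensity in replicates 1 and 2 of day 4, and 9.49 and 6.35, and 10.33 and 7.86 on day 6. S100A4 went the other way, with 10.06 and 10.82 on day 4 and 9.14 and 9.75 on day 6. The ACTB 3' to 5' ratio was also higher in replicate 1 on these days, at 19.0 and 9.18 on day 4 and 31.0 and 16.0 on day 6. It was lower in replicate 1 on day 8, at 9.91 and 15.1. The GAPDH ratio differed less between replicates, at 2.22 and 2.15 on day 4 and 3.73 and 3.41 on day 6. The part of these markers and of RNA quality in the replicate differences was not tested.

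**Figure D4:**
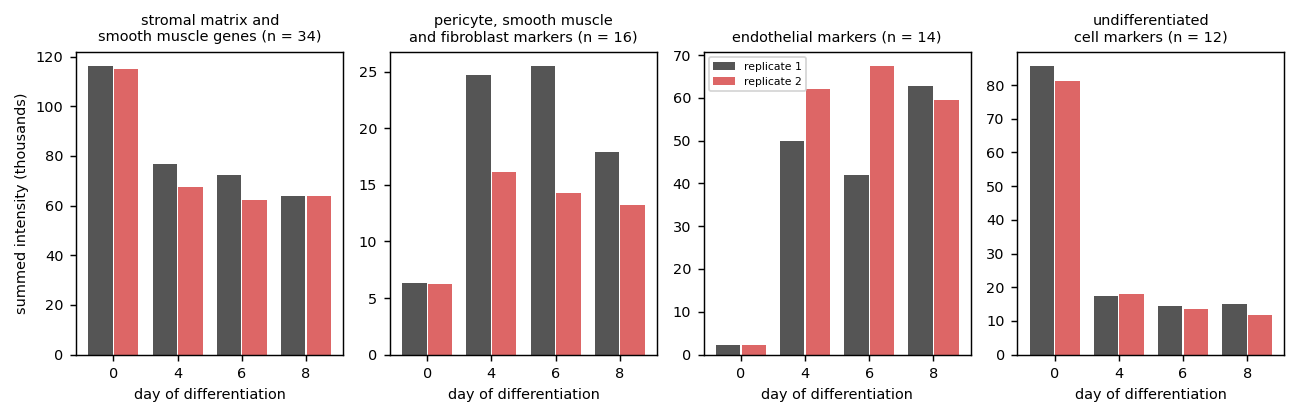
Summed intensity (y axis, from 0, in the unit printed on it) of the 34 genes and of 3 marker lists on each array by day (x axis), with replicate 1 in grey and replicate 2 in red. The sum of the 34 genes is 116088 and 115018 on day 0 and lies between 62336 and 76813 on the sorted arrays, and the pericyte list is higher in replicate 1 at each sorted day.

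Of 17 collagen-processing genes 1, 2 and 4 rose and 0, 1 and 2 fell on day 4, day 6 and day 8, where over all genes 8.52%, 9.73% and 10.4% rose and 9.91%, 13.6% and 14.1% fell. CRTAP, which helps hydroxylate collagen prolines, was higher by 1.78-fold to 1.91-fold at the 3 days, and PLOD3, a lysyl hydroxylase, by 1.83-fold and 1.84-fold on day 6 and day 8. PCOLCE, an enhancer of procollagen cleavage, was lower by 3.93-fold on day 8, and LOXL4, a relative of LOX, by 1.43-fold and 1.46-fold on day 6 and day 8. Of 20 other matrix genes 17 were tested, and 5, 5 and 6 fell while 0, 1 and 2 rose. VCAN, the large proteoglycan versican, was lower by 3.97-fold, 5.09-fold and 3.48-fold, LTBP2 by 2.33-fold, 2.25-fold and 2.38-fold, and MFAP2, a microfibril protein, by 2.42-fold, 2.65-fold and 3.24-fold.

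CCN1, a close relative of CCN2 and likewise a YAP and TAZ target, had 12.41 and 12.39 log2 intensity on day 0, 11.07 and 10.02 on day 4, 10.06 and 8.91 on day 6, and 9.52 and 8.65 on day 8. It was lower by 3.62-fold, 7.53-fold and 9.97-fold (adjusted p 0.0462, 0.00751 and 0.00439). Of 20 tested regulators and targets of the actin, serum response factor, YAP and TGF-beta pathways, 3, 2 and 4 rose and 3, 5 and 3 fell, against the same shares of all genes. ANKRD1, a further YAP target, was 1 of these falls on each day, but it was above the array median on the day 0 arrays alone and had to differ. It had 7.40 and 7.08 log2 intensity on day 0 and 5.84 to 5.92 on the sorted arrays. TGFB1 and MYOCD were above the median on sorted arrays alone, so that a rise of either would be built into the filter. Of the 17 genes above it on at least 1 array of both kinds, 3, 2 and 3 rose and 2, 4 and 2 fell. WWTR1, which encodes TAZ, was higher by 3.59-fold, 3.95-fold and 5.02-fold, while YAP1 had differences of -0.30, -0.41 and -0.37, which did not pass, a gene chosen after its values were seen. TGFBR2, a receptor of TGF-beta, was higher by 3.54-fold, 3.27-fold and 5.03-fold, and the ligand gene TGFB2 was lower by 2.20-fold, 2.97-fold and 2.49-fold.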

How the data were processed

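For each probe set the authors deposited an intensity per array, linear and not logged, made with MAS5 per the submitters' processing notes. The version, scaling and any detection calls are not given in the sources used here. RNA was labelled as biotinylated cRNA for Affymetrix arrays, per the labels' protocols. Each array's median lay between 88.7 and 93.2, and nothing further was scaled.

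The deposited intensities were transformed here as log2(intensity + 32). Of 54675 probe sets, 41091 carried 1 gene symbol in the platform annotation and others were not named. Per gene the brightest was kept, and an _x_at probe set only for want of another. Genes above the median of 2 or more of the 8 arrays were tested, 13647 of 19775. limma 3.58.1 in R 4.3.3 fitted 1 model with a term per day over 8 arrays, eBayes with trend and two-sided tests, with Benjamini-Hochberg adjustment over all genes, called at 0.05. It had 4 residual degrees of freedom with 2.84 from the prior, and was tested on simulated data. Of genes set 1 log2 unit from day 0, 28.4%, 44.8% and 31.3% were recovered on day 4, day 6 and day 8. At 2 units the shares were 86.6%, 68.7% and 71.6%, and at 3 units 92.4%, 90.9% and 90.9%. False calls numbered 4, 9 and 1 against day 0. Within the gate they numbered 79 (day 6 against day 4), 23 (day 8 against day 4) and 21 (day 8 against day 6). The SE of a change pools all groups. Every gene of the list is named, and of 3 accompanying lists up to 4 genes with the smallest adjusted p against day 0. Members and lists were chosen with earlier results of these data known. The groups came from sample titles, because 3 samples of day 6 and day 8 carry day 4 in another label. Promoters are from RefSeq, GRCh38.p14. Figures used Python 3.11.15 with matplotlib 3.10.9. Alternatives changed the offset, filter, normalization, probe sets, eBayes trend and arrays fitted, added a replicate block, and left out each array.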

Additional observations from a re-analysis of the deposited data

How the results depend on the processing

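Counts of these genes called against day 0 were 15, 16 and 15 at day 4, day 6 and day 8. Leaving out 1 array in turn gave 4 to 19, 4 to 17 and 7 to 18, and no member passed within the gate (0 in each comparison). Where an array is left out, the spread of its lone partner is taken from the other groups. The other alternatives gave 14 to 22, 13 to 22 and 15 to 22, the highest after dropping replicate 1 of both day 4 and day 6, which was chosen after seeing the data, and, at day 8, also with only the groups compared. Median centring, likewise added after seeing the data, gave 16, 17 and 17. The replicate block gave 19, 18 and 17, and 0 in each comparison within the gate. Same-numbered arrays deviated together among the sorted days, with correlations of 0.60 between day 6 and day 4, 0.41 between day 8 and day 6 and 0.19 between day 8 and day 4, but not with day 0 (-0.02 to 0.02), and the labels do not pair them, so the comparisons with day 0 were not treated as paired. All genes called at day 8 numbered 6784 with only the groups compared and 3345 in the fit to all 8 arrays reported above. With replicate 1 of both day 4 and day 6 dropped they numbered 4764, 6096 and 6781, against 2516, 3187 and 3345. Leaving out 1 array gave 991 to 3142, 1205 to 3591 and 1217 to 4360. Using the mean of all probe sets lost 6 of 46 calls, only the groups compared 6, quantile normalization 4, no filter 2, eBayes without trend 1, median centring 1, and a smaller or larger offset or a stricter filter 0. No scanner files, detection calls or slide labels were used, so background correction and slide could not be tried.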
